A study of Homo sapiens with 12 samples.

Results

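The transcripts of 10 genes of the Wnt pathway were followed across the sorted populations of 2 established human pancreatic adenocarcinoma lines. The genes were picked by symbol: the ligands *WNT5A*, *WNT7A*, *WNT7B* and *WNT10A*, the secreted inhibitors *DKK1* and *DKK3*, and the feedback and receptor genes *AXIN2*, *RNF43*, *ZNRF3* and *LGR4*. All 10 were among the 23346 genes of the table, and 9 of them passed the filter of a mean of at least 0.1 RPKM (reads per kilobase of gene model, scaled to the size of the library) over the 12 samples, as did 16236 genes in all. *WNT5A* did not pass and was not tested.

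The 4 groups were SW1990 cells negative for the GCTM-5 antigen, SW1990 cells positive for it, and the corresponding negative and positive CFPAC-1 cells, each with 3 samples from separate sorts. GCTM-5 is a monoclonal antibody against a secreted glycoprotein complex of pancreaticobiliary ductal cells, and the gates kept strongly stained and unstained cells of otherwise untreated monolayer cultures, with no other difference between the samples of a line given in the labels. Polyadenylated RNA was sequenced, and library totals worked out from the values ran from 9969697 to 26159330 reads. Each line stands for 1 tumour, and p-values measure the spread between sorts of a line.

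Wnt ligands are secreted lipid-modified proteins that bind Frizzled receptors and the co-receptors LRP5 and LRP6 on the receiving cell. In the canonical branch this stops the destruction complex, built on AXIN proteins, from degrading β-catenin, which then acts with TCF/LEF factors on target genes. Several targets feed back on the pathway: AXIN2 rebuilds the destruction complex, DKK1 blocks LRP5 and LRP6, and RNF43 and ZNRF3 are membrane ubiquitin ligases that remove Frizzled receptors unless R-spondins bind LGR receptors and clear them. In pancreatic tumours the pathway is best known for inactivating *RNF43* mutations, which leave cells reliant on their own Wnt ligands.

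As a check of the labelled cell type, all 6 markers of ductal epithelium (*EPCAM*, *CDH1*, *KRT7*, *KRT8*, *KRT18* and *KRT19*) were expressed in each group. Their summed level was 1595 to 1942 RPKM in SW1990 samples without the antigen and 4360 to 4841 RPKM in those with it, and 5411 to 6173 RPKM against 6676 to 8162 RPKM in CFPAC-1. The 6 mesenchymal markers (*VIM*, *ZEB1*, *ZEB2*, *CDH2*, *FN1* and *SPARC*) summed to 1290 to 1452 RPKM against 201.1 to 372.0 RPKM in SW1990, with no marker at 0 in any group, and to 551.5 to 752.2 RPKM against 420.3 to 589.4 RPKM in CFPAC-1. The 6 fibroblast markers summed to 12.6 to 22.6 RPKM in negative SW1990 cells, where 3 of 6 reached 1 RPKM, and to at most 4.88 RPKM in the other groups, where *DCN* and *COL3A1* were at 0. The 4 endothelial markers summed to 14.8 to 18.8 RPKM in negative SW1990 cells, with *KDR* at 0, and to at most 2.05 RPKM elsewhere. Only 1 of the 4, *CDH5* at 15.6 ± 1.82 RPKM (SD, n = 3), reached 1 RPKM in negative SW1990 cells, so that sum was mostly this gene. The 4 leukocyte markers summed to 34.7 to 48.1 RPKM in negative SW1990 cells, at most 34.4 RPKM in positive SW1990 cells and 160.0 to 223.7 RPKM in CFPAC-1, with 2 of 4, *CD68* and *LYZ*, at 1 RPKM or more in each group. *PTPRC* and *CD3E* held at most 3 reads in any sample, and mean *LYZ* was 1.24 RPKM in negative and 1.22 RPKM in positive SW1990 cells. The 4 acinar markers summed to at most 0.295 RPKM. The ductal, mesenchymal, fibroblast, endothelial and leukocyte sums thus moved with the antigen in SW1990 without overlap, as did the ductal sum in CFPAC-1. *KRT19* and *EPCAM* went against that CFPAC-1 rise, with lower means in positive cells. The mesenchymal sum of CFPAC-1 was mostly *VIM*, whose samples overlapped. *ZEB1*, *ZEB2*, *CDH2*, *FN1* and *SPARC* were each lower in positive CFPAC-1 cells without overlap, *ZEB1* at 2.48 to 2.56 against 5.94 to 7.65 RPKM. The part of these markers in the changes below was not tested. In sorted bulk samples a smaller share of expressing cells and less RNA per cell cannot be told apart.

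The promoters of *WNT7A*, *WNT10A* and *DKK1*, the members with a RefSeq entry whose change with the antigen differed between the lines in the tests below, are shown first, as the 250 bases before the transcription start. RefSeq (GRCh38.p14) entries were found for 6 of the 10 members. The upstream stretch of *WNT7A* lies at chr3:13880072-13880321 on the minus strand, that of *WNT10A* at chr2:218880602-218880851 on the plus strand and that of *DKK1* at chr10:52314031-52314280 on the plus strand. Each is written 5′ to 3′, with the letters of an E-box (CACCTG, or CAGGTG on the other strand), the motif that ZEB and SNAI repressors recognise, in capitals.
WNT7A: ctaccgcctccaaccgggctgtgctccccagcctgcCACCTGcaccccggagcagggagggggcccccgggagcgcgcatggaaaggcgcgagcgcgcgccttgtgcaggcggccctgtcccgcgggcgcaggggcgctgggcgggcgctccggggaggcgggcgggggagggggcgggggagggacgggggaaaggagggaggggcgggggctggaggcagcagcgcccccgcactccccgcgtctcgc
WNT10A: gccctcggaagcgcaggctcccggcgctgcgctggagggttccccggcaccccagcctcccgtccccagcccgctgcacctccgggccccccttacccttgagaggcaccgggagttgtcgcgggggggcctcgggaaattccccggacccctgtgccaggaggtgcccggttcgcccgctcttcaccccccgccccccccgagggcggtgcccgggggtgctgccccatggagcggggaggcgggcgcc
DKK1: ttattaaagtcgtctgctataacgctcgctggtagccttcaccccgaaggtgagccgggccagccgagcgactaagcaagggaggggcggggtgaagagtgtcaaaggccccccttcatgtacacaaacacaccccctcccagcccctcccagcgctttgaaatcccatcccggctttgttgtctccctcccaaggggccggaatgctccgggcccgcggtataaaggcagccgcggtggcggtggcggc

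The E-box, a motif chosen after expression values had been seen, was found in the *WNT7A* stretch, starting at position -214 from the start site, and in neither of the other printed stretches. It also stood in 1 of the *WNT5A* entries, so that 2 of the 8 entries held it, against 17.5% of 35116 promoters of the same length. The core TCF/LEF motif (ATCAAAG, or CTTTGAT on the other strand) was in none of the 8 entries of the 6 members, against 2.26% of all promoters. At so low a share, its absence from 8 entries says little. *WNT7B*, *DKK3*, *AXIN2* and *ZNRF3* had no entry and were not searched. A match describes letters in this window only.

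With the antigen, all 9 tested members changed in SW1990 and 3 of 9 in CFPAC-1. In SW1990 positive cells the ligands *WNT10A*, *WNT7A* and *WNT7B* and the ligases *RNF43* and *ZNRF3* were higher, and *AXIN2*, *DKK3*, *DKK1* and *LGR4* were lower. In CFPAC-1 positive cells *DKK1* was higher, and *AXIN2* and *WNT7B* were lower. *AXIN2* was thus lower in positive cells of both lines, whereas *DKK1* and *WNT7B* went opposite ways. Calls were made in limma where the p-value, adjusted over all tested genes by the Benjamini-Hochberg method, was under 0.05. By this rule 28.2% of all genes were called in SW1990 (11.3% higher, 16.9% lower) and 36.5% in CFPAC-1 (22.3% higher, 14.2% lower). The members' share was above that background in SW1990 and close to it in CFPAC-1. The members and the wider lists were chosen with earlier results of these data known. These shares and those below are thus a description and no test of the set. The positive samples lay outside the range of the negative ones for 9 of 9 members in SW1990, where 43.3% of all genes did so, and for 6 of 9 in CFPAC-1, where 48.5% did. With each sample centred on its median, the share of higher genes among those called moved from 61.1% to 47.8% in CFPAC-1.

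**Figure D1:**
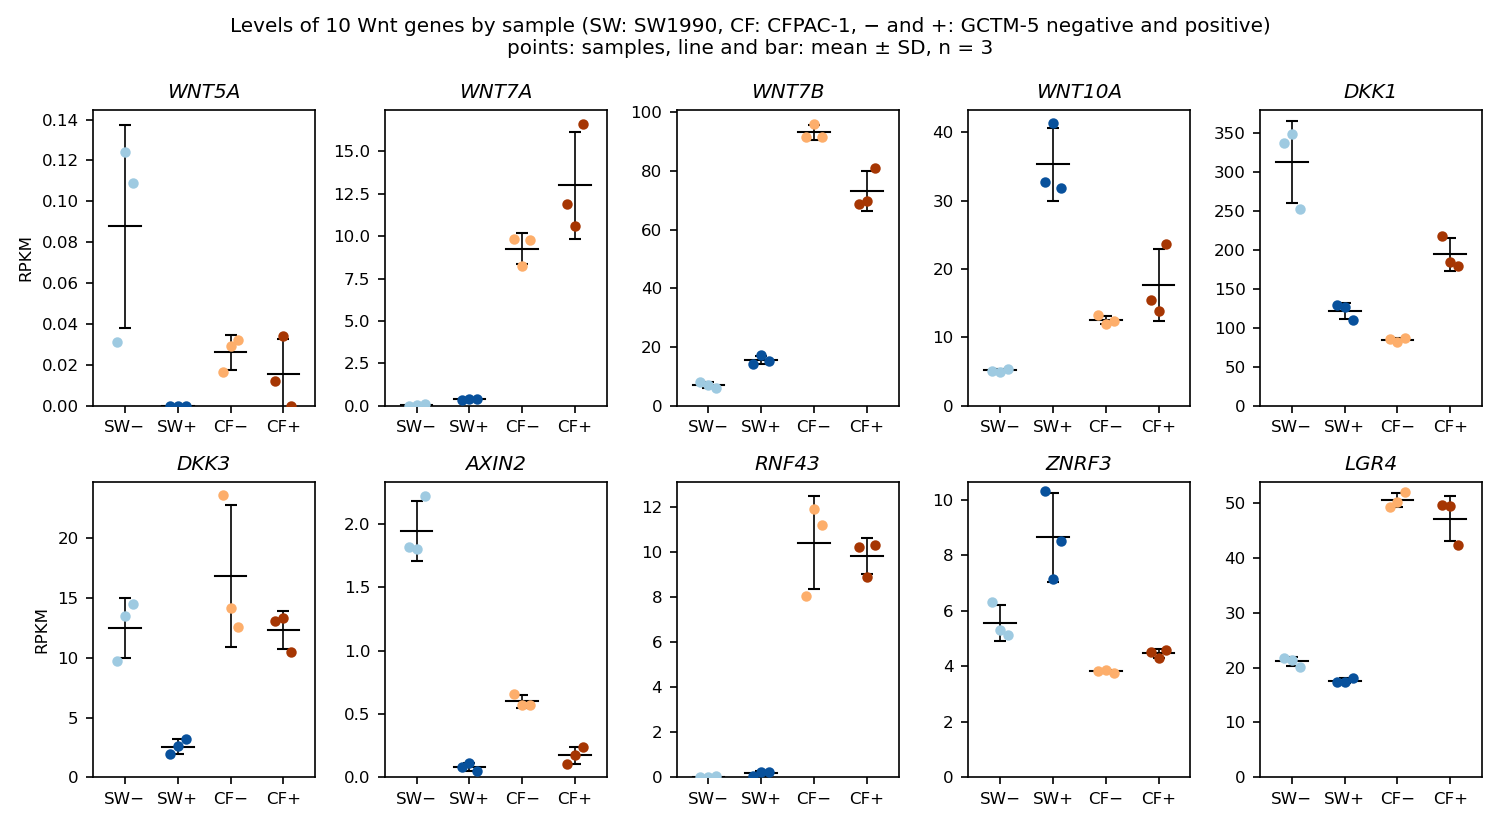
RPKM of each of the 10 genes (vertical axis, linear, from 0) in the 4 groups (horizontal axis), with points for the samples and a line and bar for the mean ± SD of 3. Negative and positive SW1990 samples do not overlap for any of the 9 tested genes, *WNT10A* peaks in positive SW1990 cells and *RNF43* is near 0 in both SW1990 populations.

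Among the ligands, *WNT10A*, known for its part in teeth, hair and other skin appendages, had the largest SW1990 change on the log2(RPKM + 0.1) scale, which understates changes of low genes such as *WNT7A*. The gene lies on chromosome 2 from 219745574 to 219764303 on the plus strand (GRCh37, GENCODE 44, as for all gene positions here). Its level was 5.10, 4.96 and 5.40 RPKM in the negative SW1990 samples and 32.7, 41.4 and 31.8 RPKM in the positive ones. It was 13.2, 12 and 12.4 RPKM in negative and 15.5, 13.9 and 23.7 RPKM in positive CFPAC-1 samples. The 4 groups did not overlap, and positive SW1990 cells held the most and negative SW1990 cells the least. Mean RPKM was 6.85-fold higher in positive SW1990 cells, a log2 fold change of 2.74 ± 0.17 (SE) on RPKM + 0.1 with adjusted p = 4.20e-07. In CFPAC-1 the change was 0.46 ± 0.17 with adjusted p = 0.0548, which passed only among genes of at least 1 RPKM (adjusted p = 0.0491) or without CFPAC-1 positive replicate 2 (0.61, adjusted p = 0.0181).

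*WNT7B* and *WNT7A* are close relatives of the WNT7 subfamily. *WNT7B* (chromosome 22, 46316246 to 46373042, minus strand) was the most abundant ligand of CFPAC-1. It stood at 7.94, 6.89 and 5.91 RPKM in negative and 14.2, 17.1 and 15.3 RPKM in positive SW1990 samples. In CFPAC-1 it stood at 91.7, 96.2 and 91.7 RPKM in negative and 68.8, 69.8 and 81.1 RPKM in positive samples. Positive cells were thus above negative cells in SW1990 and below them in CFPAC-1, with no overlap in either line. The log2 fold change was 1.16 ± 0.11 in SW1990 (adjusted p = 1.21e-05) and -0.35 ± 0.11 in CFPAC-1 (adjusted p = 0.0304). The CFPAC-1 call was lost when any one CFPAC-1 sample other than positive replicate 3 was left out (log2 fold change -0.36 to -0.31, adjusted p 0.0642 to 0.0991), with a replicate block (adjusted p = 0.0536) and without the trend in limma's variance step (adjusted p = 0.0515).

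*WNT7A* (chromosome 3, 13857755 to 13921568, minus strand) was close to absent from negative SW1990 cells, at 0, 0.0501 and 0.0660 RPKM or 0, 2 and 2 reads. Positive SW1990 samples held 0.331, 0.412 and 0.362 RPKM, from 11 to 12 reads each. CFPAC-1 samples held 9.83, 8.22 and 9.75 RPKM when negative and 11.9, 10.6 and 16.6 RPKM when positive. The ligand was low in all SW1990 samples and far higher in all CFPAC-1 samples, and the 4 groups did not overlap. In SW1990 it was higher in positive than in negative cells (log2 fold change 1.79 ± 0.23, adjusted p = 9.71e-05). The positive SW1990 mean was 4.26-fold a floor of 3 reads per library, set for the negative cells. With a pseudocount of 1 in place of 0.1 the SW1990 change was 0.40 with adjusted p = 0.0547. In CFPAC-1 the change was 0.47 ± 0.23 (adjusted p = 0.129), and 0.43 with adjusted p = 0.0324 at a pseudocount of 1.

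*WNT5A* (chromosome 3, 55499743 to 55524567, minus strand), the prototype ligand of β-catenin-independent signalling, was barely detected. Its level was 0.0312, 0.124 and 0.109 RPKM in negative SW1990 samples and 0 in all 3 positive ones. In CFPAC-1 it was 0.0164, 0.0293 and 0.0321 RPKM in negative and 0.0122, 0.0341 and 0 RPKM in positive samples. Negative SW1990 cells thus had the highest mean, on 2 to 9 reads, with replicate 1 inside the CFPAC-1 range. That mean was 1.64-fold the 3-read floor of positive SW1990 cells (0.0535 RPKM), and negative replicate 1 lay below this floor. The reads were worked out from the steps of the values, and for a gene with so few they may be too low by a common factor. No difference between the CFPAC-1 populations was detectable at this depth.

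As RPKM is scaled to length, ligand levels could be summed. Over all 19 *WNT* genes, the 4 ligands above among them, the sum was 27.4 ± 3.48 RPKM (SD, n = 3) in negative SW1990 cells, 60.8 ± 6.07 in positive SW1990 cells, 120.0 ± 0.987 in negative CFPAC-1 cells and 107.4 ± 15.4 in positive CFPAC-1 cells. *WNT7A*, *WNT7B* and *WNT10A* together took 41.5 to 46.3% of it in negative SW1990 samples and 82.4 to 86.9% in positive ones. They took 95.2 to 96.1% and 96.3 to 97.1% in negative and positive CFPAC-1 samples. In SW1990 the share of *WNT10A* went from 19.0 ± 2.66% to 57.8 ± 2.94% while that of *WNT7B* was 25.2 ± 1.65% and 25.6 ± 0.889%. In CFPAC-1 *WNT7B* held 77.6 ± 1.53% in negative and 68.5 ± 3.52% in positive cells. The remainder in negative SW1990 cells was chiefly *WNT11*, at 23.8% of the sum (6.62 ± 2.13 RPKM), and *WNT16*, at 10.1% (2.78 ± 0.596 RPKM). *WNT11* is named here for its share, after its values were seen. The sums and shares are given as a description and were not tested.

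**Figure D2:**
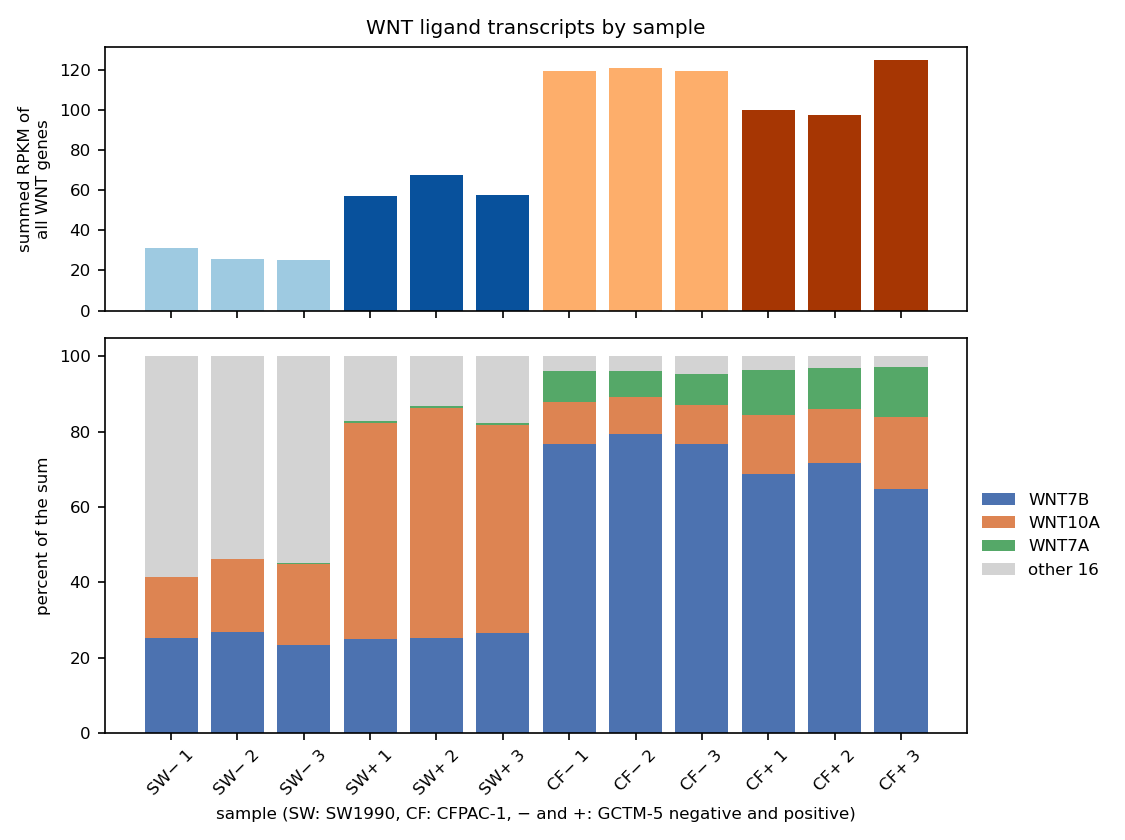
Summed RPKM of the 19 *WNT* genes (upper panel) and the percentage of that sum from *WNT7B*, *WNT10A*, *WNT7A* and the other *WNT* genes (lower panel), one bar per sample. *WNT10A* takes at most 21.5% in any negative SW1990 sample and at least 55.2% in any positive one, and *WNT7B* takes at least 64.8% in every CFPAC-1 sample.

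Of the secreted inhibitors, *DKK1* (chromosome 10, 54074041 to 54077802, plus strand), the antagonist of LRP5 and LRP6, was the most abundant member in 3 of the 4 groups, negative CFPAC-1 cells holding more *WNT7B*. It reached 337.1, 348.5 and 252.0 RPKM in negative SW1990 samples and 129.3, 126.1 and 109.9 RPKM in positive ones. In CFPAC-1 the order was turned round, with 85.5, 82.1 and 86.4 RPKM in negative and 217.8, 184.8 and 179.6 RPKM in positive samples. The 4 groups did not overlap. The log2 fold change was -1.35 ± 0.13 in SW1990 (adjusted p = 9.17e-06) and 1.19 ± 0.13 in CFPAC-1 (adjusted p = 6.16e-05), and each kept its call under all alternatives tried.

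*DKK3* (chromosome 11, 11977754 to 12031316, minus strand) is a divergent member of the Dickkopf family. It stood at 9.72, 13.5 and 14.5 RPKM in negative and 1.97, 2.60 and 3.17 RPKM in positive SW1990 samples. In CFPAC-1 it stood at 23.6, 14.2 and 12.6 RPKM in negative and 13.1, 13.3 and 10.5 RPKM in positive samples. Positive SW1990 cells lay below all other samples, and the CFPAC-1 populations overlapped, with negative replicate 1 high among them. *DKK3* fell in SW1990 by a log2 value of 2.24 ± 0.24 (adjusted p = 2.74e-05), and in CFPAC-1 the change was -0.40 ± 0.24 (adjusted p = 0.218). *USP47* overlaps *DKK3* on the opposite strand, as *TSPOAP1-AS1* overlaps *RNF43*, and without known strand use in counting the reads of such overlaps cannot be told apart. Protein-coding entries without a gene symbol also overlap *AXIN2* and *RNF43* on the same strand, where strand use would not separate the reads. Per length, *DKK1* exceeded *DKK3* 17.4- to 65.8-fold in SW1990 samples and 3.62- to 17.2-fold in CFPAC-1 samples.

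**Figure D3:**
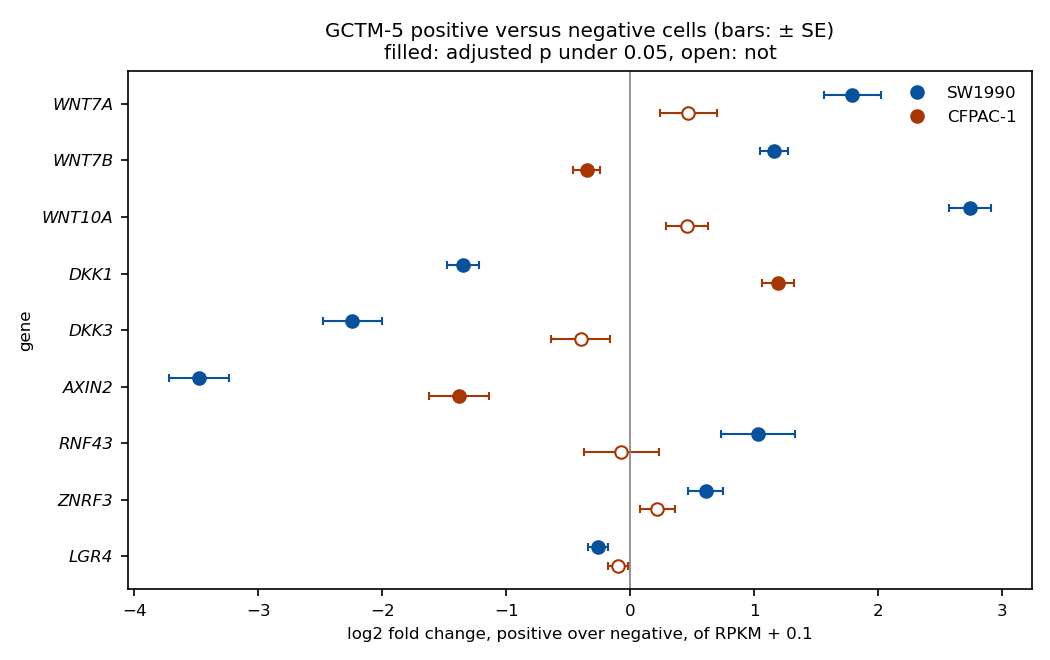
Log2 fold change of RPKM + 0.1 in GCTM-5 positive over negative cells (horizontal axis) for the 9 tested genes, with SE bars, in SW1990 (blue) and CFPAC-1 (brown), filled where the adjusted p is under 0.05. *DKK1* and *WNT7B* lie on opposite sides of 0 in the 2 lines and *AXIN2* lies below 0 in both.

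Of the feedback genes, *AXIN2* (chromosome 17, 63524681 to 63557766, minus strand), the scaffold used as a standard readout of β-catenin signalling, fell in positive cells of both lines. Negative SW1990 samples held 1.82, 1.80 and 2.22 RPKM and positive ones 0.0853, 0.111 and 0.0533 RPKM. Negative CFPAC-1 samples held 0.655, 0.573 and 0.569 RPKM and positive ones 0.108, 0.176 and 0.237 RPKM. Negative samples were above positive ones in both lines without overlap, and the positive samples of the lines overlapped each other. Mean RPKM was 23.3-fold lower in positive SW1990 cells (log2 fold change -3.48 ± 0.24, adjusted p = 8.33e-07) and 3.45-fold lower in positive CFPAC-1 cells (-1.38 ± 0.24, adjusted p = 0.00109). Levels in positive cells rested on 4 to 8 reads a sample in SW1990 and 10 to 14 in CFPAC-1.

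*RNF43* and *ZNRF3* encode the paired ligases that remove Frizzled. *RNF43* (chromosome 17, 56431037 to 56494956, minus strand) stood at 0, 0.0377 and 0.0496 RPKM in negative and 0.0566, 0.220 and 0.248 RPKM in positive SW1990 samples, that is on 0 to 4 and 5 to 20 reads. In CFPAC-1 it stood at 8.03, 11.9 and 11.2 RPKM in negative and 10.2, 8.87 and 10.3 RPKM in positive samples. The gene was thus expressed in every CFPAC-1 sample and close to absent from SW1990. In SW1990 it was higher in positive cells by a log2 value of 1.03 ± 0.30 (adjusted p = 0.0218). That call was lost without negative replicate 1 (0.85, adjusted p = 0.0783), positive replicate 2 (0.87, adjusted p = 0.0771) or positive replicate 3 (0.81, adjusted p = 0.0913), with SW1990 fitted alone (adjusted p = 0.0873) and with a pseudocount of 1 (0.19, adjusted p = 0.357). In CFPAC-1 the change was -0.07 ± 0.30 (adjusted p = 0.894).

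*ZNRF3* (chromosome 22, 29279560 to 29453476, plus strand) differed least between groups, spanning 2.74-fold from the lowest to the highest sample. It measured 6.32, 5.29 and 5.11 RPKM in negative and 10.3, 7.13 and 8.50 RPKM in positive SW1990 samples. In CFPAC-1 it measured 3.82, 3.88 and 3.76 RPKM in negative and 4.52, 4.30 and 4.59 RPKM in positive samples. Positive samples lay above negative ones in both lines. The log2 fold change was 0.61 ± 0.14 in SW1990 (adjusted p = 0.00568) and 0.22 ± 0.14 in CFPAC-1 (adjusted p = 0.237). Per length, *RNF43* was at most 0.0308 times *ZNRF3* in SW1990 samples and 2.07 to 3.07 times *ZNRF3* in CFPAC-1 samples.

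*LGR4* (chromosome 11, 27387508 to 27494337, minus strand) encodes a receptor for R-spondins. It measured 21.7, 21.4 and 20.1 RPKM in negative and 17.3, 17.3 and 18.1 RPKM in positive SW1990 samples, and 49.3, 50.1 and 52.0 RPKM in negative and 49.5, 49.4 and 42.3 RPKM in positive CFPAC-1 samples. The lines were far apart and the populations close. The log2 fold change was -0.26 ± 0.08 in SW1990 (adjusted p = 0.0285) and -0.10 ± 0.08 in CFPAC-1 (adjusted p = 0.336). The SW1990 call was lost with each sample centred on its median (-0.21, adjusted p = 0.0942), with a replicate block (adjusted p = 0.0706), without the variance trend (adjusted p = 0.0547), and without any one SW1990 sample other than negative replicate 3 (-0.28 to -0.24, adjusted p 0.0525 to 0.0823).

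Whether the change with the antigen differed between the lines was tested directly, as the SW1990 change minus the CFPAC-1 change, in a contrast that shares all its samples with both. It differed for 6 of 9 members, 3 with the more positive and 3 with the more negative change in SW1990, against 26.9% of all genes (9.16% and 17.8%). The SW1990 change was the more positive for *WNT10A* (difference 2.29 ± 0.24, adjusted p = 5.75e-05), *WNT7B* (1.52 ± 0.16, adjusted p = 5.75e-05) and *WNT7A* (1.32 ± 0.32, adjusted p = 0.010). It was the more negative for *DKK1* (-2.54 ± 0.18, adjusted p = 5.44e-06), *AXIN2* (-2.11 ± 0.34, adjusted p = 0.000830) and *DKK3* (-1.84 ± 0.34, adjusted p = 0.00213). For *AXIN2* the direction was the same in both lines and the size differed. The difference for *WNT7A* was -0.03 (adjusted p = 0.919) with a pseudocount of 1. For *RNF43* it was 1.09 ± 0.42 (adjusted p = 0.0742), and past the threshold without SW1990 positive replicate 1 (1.46, adjusted p = 0.00645) or with centring on the median (1.24, adjusted p = 0.0486). The *RNF43* difference also passed in limma with quantile normalization (1.45, adjusted p = 0.0136), a replicate block (adjusted p = 0.0392) and voom on recovered reads (2.77, adjusted p = 0.0417). For *ZNRF3* it was 0.39 ± 0.20 (adjusted p = 0.162) and for *LGR4* -0.16 ± 0.11 (adjusted p = 0.332). Centring moved the median difference of all genes from -0.148 to 0.001 and the share of positive differences among those called from 34.0% to 50.0%.

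The lines also differed within each population, in contrasts that use the same samples again. In negative cells 8 of 9 members differed, 3 higher and 5 lower in SW1990, against 68.9% of all genes (40.7% and 28.2%). In positive cells 8 of 9 differed, 2 higher and 6 lower, against 62.3% of all genes (32.9% and 29.3%). The lines did not overlap for 8 of 9 members in either population, against 75.2% of all genes in negative and 63.9% in positive cells. *RNF43*, *WNT7A*, *WNT7B* and *LGR4* were lower in SW1990 than in CFPAC-1 in both populations. For *RNF43* the log2 difference was -6.34 ± 0.30 in negative (adjusted p = 4.01e-09) and -5.25 ± 0.30 in positive cells (adjusted p = 2.90e-08). *WNT7A* was at least 107.2-fold lower in negative SW1990 cells, set against the 3-read floor, and 35.4-fold lower in mean RPKM in positive ones. *WNT7B* was 13.5-fold lower in negative and 4.71-fold lower in positive SW1990 cells (log2 difference -3.74 ± 0.11 and -2.23 ± 0.11). *LGR4* was 2.39-fold and 2.68-fold lower (-1.25 ± 0.08 and -1.41 ± 0.08).

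For *WNT10A* and *DKK1* the order of the lines depended on the population. *WNT10A* was lower in SW1990 among negative cells (-1.27 ± 0.17, adjusted p = 3.33e-05) and higher among positive cells (1.02 ± 0.17, adjusted p = 0.000249). *DKK1* was higher in SW1990 among negative cells (1.87 ± 0.13, adjusted p = 8.92e-08) and lower among positive cells (-0.67 ± 0.13, adjusted p = 0.000595). *AXIN2* was higher in SW1990 among negative cells (1.54 ± 0.24, adjusted p = 0.000100), and among positive cells the difference was -0.56 ± 0.24 (adjusted p = 0.0569). That last value passed the threshold without SW1990 positive replicate 2 (-0.67, adjusted p = 0.0482), without CFPAC-1 positive replicate 1 (-0.75, adjusted p = 0.0216) and with centring (-0.60, adjusted p = 0.0467). It also passed in limma with a pseudocount of 0.01 (-0.96, adjusted p = 0.0338) and without the variance trend (-0.56, adjusted p = 0.0198). *DKK3* was -0.39 ± 0.24 among negative (adjusted p = 0.176) and -2.23 ± 0.24 among positive cells (adjusted p = 7.51e-06), and *ZNRF3* was higher in SW1990 in both (0.53 ± 0.14 and 0.92 ± 0.14, adjusted p = 0.00490 and 0.000111).

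**Figure D4:**
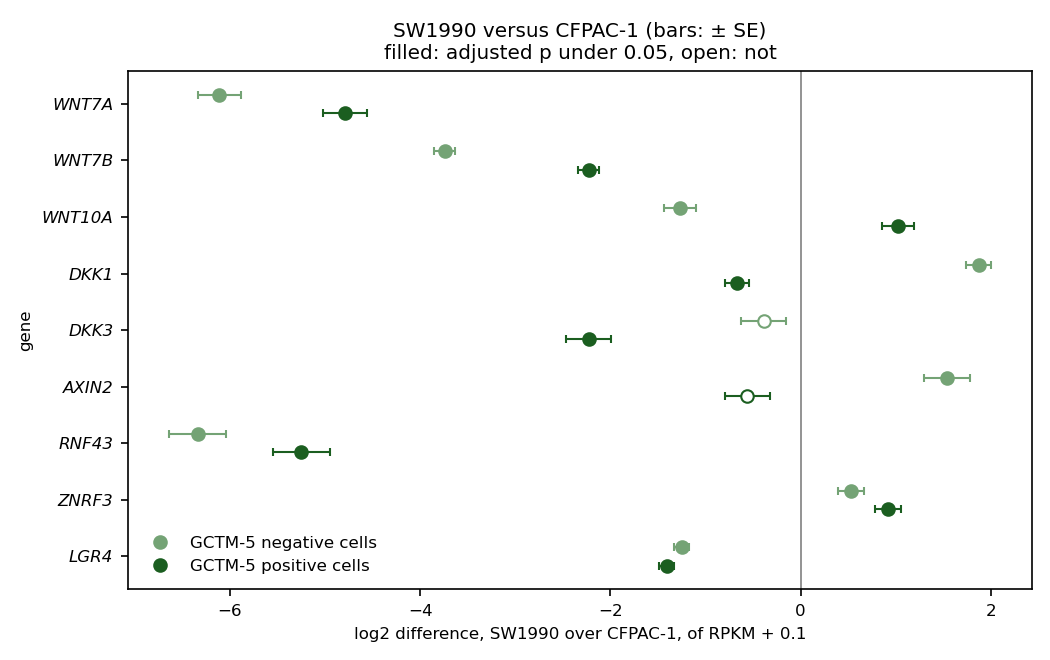
Log2 difference of RPKM + 0.1, SW1990 over CFPAC-1 (horizontal axis), for the 9 tested genes with SE bars, in negative (light green) and positive (dark green) cells, filled where the adjusted p is under 0.05. *RNF43* and *WNT7A* lie below -4 in both populations, and *WNT10A* and *DKK1* change sides between them.

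A wider set of 96 other Wnt genes in 8 lists gave the setting, and 76 of them were tested. In SW1990 9 were higher and 22 lower in positive cells (11.8% and 28.9%, against 11.3% and 16.9% of all genes), with a median log2 fold change of -0.25 against -0.04 over all genes. In CFPAC-1 8 were higher and 16 lower (10.5% and 21.1%, against 22.3% and 14.2% of all genes), with a median of 0.03 against 0.05. The counts of single lists below stand against the same shares of all genes. Of 10 other tested ligands 1 rose and 1 fell in SW1990, and 1 rose and 3 fell in CFPAC-1, where *WNT16* (-1.15), *WNT2B* (-1.13) and *WNT4* (-1.02) fell most, *WNT16* and *WNT4* losing the call with quantile normalization. *WLS*, the carrier of Wnt proteins to the surface, went from 10.1 ± 0.496 to 8.12 ± 0.794 RPKM (SD, n = 3) in SW1990, a log2 fold change of -0.32 with adjusted p = 0.0417 that was lost with centring (-0.27, adjusted p = 0.103).

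Among 15 tested receptors and co-receptors, 1 rose and 5 fell in SW1990, and 3 rose and 3 fell in CFPAC-1. *FZD2* was the single gene of all lists called over 2-fold in both lines, and it did so in opposite directions. Its level was 33.0, 37.9 and 35.0 RPKM in negative and 19.3, 14.4 and 16.2 RPKM in positive SW1990 samples. It was 3.25, 2.75 and 2.26 RPKM in negative and 9.58, 7.46 and 3.86 RPKM in positive CFPAC-1 samples. The populations did not overlap in either line, with log2 fold changes of -1.09 (adjusted p = 0.00831) and 1.23 (adjusted p = 0.00385). *FZD8* likewise fell in SW1990 (-0.57) and rose in CFPAC-1 (0.94), *FZD4* fell (-1.38) and *FZD5* rose (0.96) in SW1990, and *LRP5*, a DKK1 target, fell in both lines (-0.78 and -0.74). Of the R-spondins, the LGR4 ligands, none passed the filter, *RSPO3* reaching at most 0.281 RPKM. *LGR6* fell in SW1990 from 10.7, 10.8 and 11.4 RPKM to 1.60, 2.80 and 2.70 RPKM (log2 fold change -2.21), and *LGR5* was at most 0.0786 RPKM in any sample. *RSPO3* and *LGR5* were named after their values were seen.

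Of 8 other tested inhibitors 2 were called lower in SW1990 and 1 higher in CFPAC-1. *SOSTDC1*, a secreted antagonist of Wnt and BMP signalling, fell in SW1990 from 2.86, 4.05 and 4.02 RPKM to 0.772, 0.820 and 0.604 RPKM (log2 fold change -2.16). It was also the gene called higher in CFPAC-1, where it passed the filter only through its SW1990 level, held 0 to 2 reads in negative and 2 to 6 reads in positive samples, and lost the call with centring (adjusted p = 0.0558), so that no direction is read there. *SFRP5*, which reached 1 RPKM only in CFPAC-1, went in SW1990 from 0.519 ± 0.162 RPKM to 2 reads in each positive sample. Its negative SW1990 mean was 5.85-fold the floor of 3 reads per library. In the destruction complex and transduction list 1 of 16 genes rose and 2 fell in SW1990, and 4 fell in CFPAC-1, where 7 were called with centring and also 7 with quantile normalization. *CTNNB1*, which encodes β-catenin, fell 1.20-fold in SW1990 (lost with centring) and 1.17-fold in CFPAC-1, *TNKS*, whose product destabilises AXIN, fell 1.43-fold and 1.35-fold, *DVL1* rose 1.37-fold in SW1990 (lost with quantile normalization), and *GSK3B* and *CSNK1D* fell 1.24-fold and 1.21-fold in CFPAC-1.

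Of 13 nuclear factors 3 rose and 5 fell in SW1990, and 1 rose and 5 fell in CFPAC-1. The co-repressor *TLE4* fell furthest in SW1990, from 6.85 ± 0.567 to 1.11 ± 0.157 RPKM (-2.52, adjusted p = 3.56e-07), *TCF7L1* fell (-1.09) and *CTNNBIP1* rose (0.70), while in CFPAC-1 *TLE1* rose (0.98) and *TCF7L2* fell (-0.58). *TLE2*, which reached 1 RPKM only in SW1990, went in CFPAC-1 from 0.243 ± 0.119 RPKM to 2 to 3 reads in each positive sample. Its negative CFPAC-1 mean was 3.69-fold the same floor. Among 11 tested targets 3 rose and 5 fell in SW1990, and 2 rose and 1 fell in CFPAC-1. *BAMBI*, a decoy receptor of TGFβ signalling and β-catenin target, fell in SW1990 from 11.2 ± 0.986 to 2.01 ± 0.425 RPKM (-2.44). *CD44* fell in both lines (-1.26 and -0.30), *CCND1* rose in both (0.42 and 0.67), and *EPHB3* rose in SW1990 (0.92). *MYC* fell in SW1990 (-0.42) and rose in CFPAC-1 (0.32). The CFPAC-1 call of *MYC* was lost in limma with centring (0.22, adjusted p = 0.109) and with quantile normalization (0.28, adjusted p = 0.052). *AXIN2*, *MYC* and *CCND1* are only some of the direct targets in textbook use, and their patterns over the lines differed. *NKD1*, given below, fell in SW1990 as *AXIN2* did. Whether the targets shared a change was not tested.

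**Figure D5:**
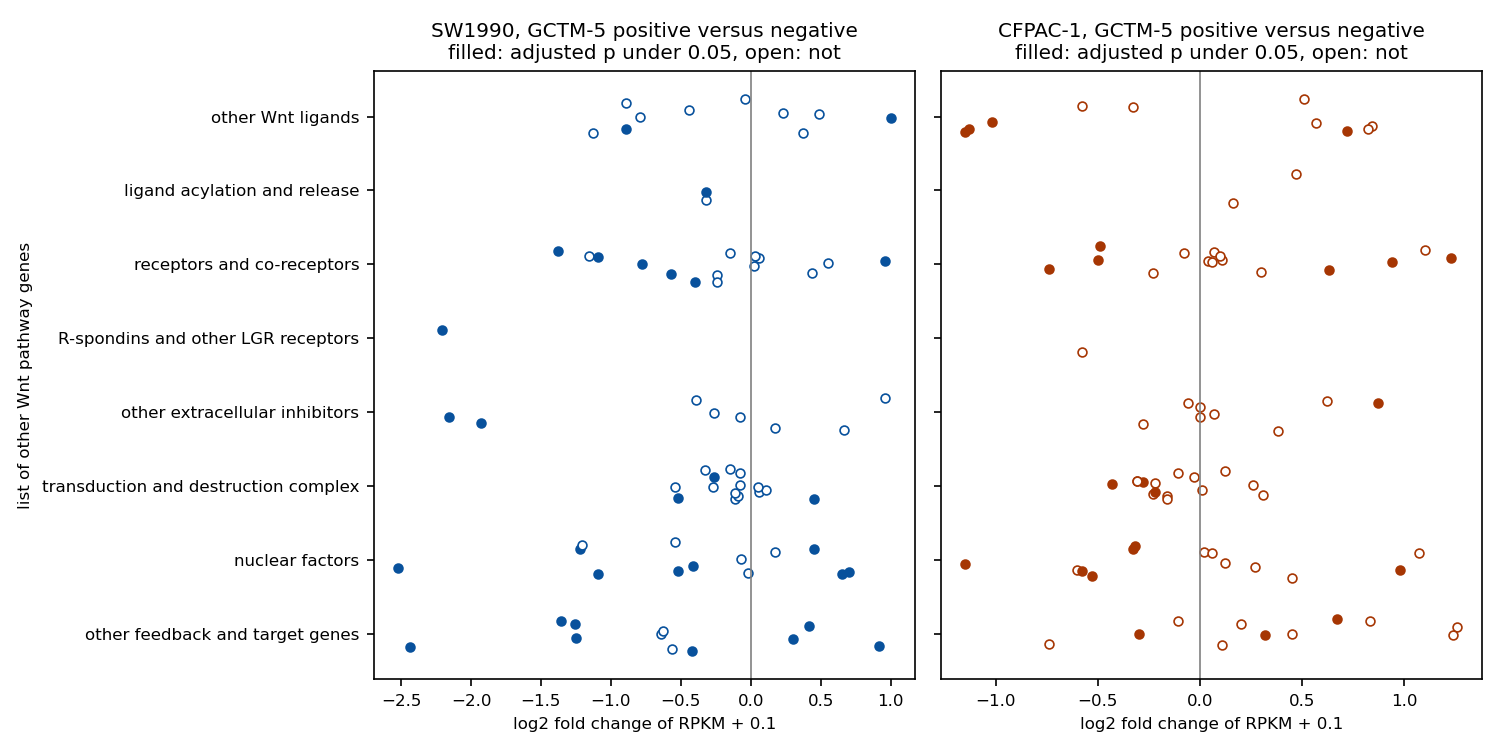
Log2 fold change of RPKM + 0.1 in GCTM-5 positive over negative cells (horizontal axis) for the other Wnt pathway genes, grouped by list (vertical axis, with random offsets within a list), in SW1990 (left) and CFPAC-1 (right), one point per gene, filled where the adjusted p is under 0.05. In SW1990 22 filled points lie below 0 and 9 above, and in CFPAC-1 16 below and 8 above.

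The genes whose log2 levels followed each member most closely over the 12 samples were listed as a description. The 12 points fall into 4 groups and share lines and libraries, and 13267 genes of at least 1 RPKM were compared. *WNT10A* was most like *C1orf116* (Pearson r = 0.992) and *C2orf54* (0.977), and 74 genes had r over 0.9 with it. *AXIN2* was most like *PTPRJ* (0.983) and *SERPINE2* (0.980), again with 74 genes over 0.9. *DKK1* was most like *FKBP1A* (0.980) and *CAP2* (0.975), with 43 genes over 0.9, and *DKK3* like *SSBP3* (0.986) and *DRAM1* (0.982), with 137. The members that separated the lines had many more such genes, 1224 for *WNT7A* (first *GALNT6*, 0.994), 1177 for *WNT7B* (first *CD24*, 0.994), 1404 for *RNF43* (first *TMEM154*, 0.996) and 1402 for *LGR4* (first *CHURC1*, 0.997). *ZNRF3* was most like *URGCP* (0.989), and *WNT5A* like *NCK1* (0.931), with 4 genes over 0.9. *WNT5A* did not pass the filter and held 0 to 9 reads a sample, so that its likeness is poorly measured.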

How the data were processed

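RNA was sequenced from 12 samples of SW1990 and CFPAC-1 cells sorted for the GCTM-5 antigen, grouped by their labels with 3 per group. The authors aligned paired reads to hg19/GRCh37 and the deposited RPKM values are QuasR read counts scaled by library size and gene length. Annotation, strand use and versions are not given in the sources used here, and the labels and the methods differ on the library kit (SureSelect strand-specific or TruSeq), the secondary antibody and the medium. The members and all gene lists were chosen with earlier results of these data known. The E-box was added after the expression values had been seen.

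Library totals and reads were recovered from the steps of the RPKM values, each within 0.01 of a whole read (largest deviation), for all 19654 genes above 0. Totals were 9969697 to 26159330 reads, which limits genes under about 0.1 RPKM. Recovery was checked on simulated data (12 of 12 totals). For no pair of samples of a group was any gene above 0 listed at exactly the same value. A floor of 3 reads per library was used where every sample of a group held at most 3 reads. Each bound divides the mean of the other group by this floor. The bounds hold no error on that mean and no spread between sorts, and are not confidence limits. Low recovered counts were often even, as for *WNT7A* in negative SW1990 samples (0, 2 and 2) and *SFRP5* in positive ones (2 in each). Whether both mates of a read pair were counted was not tested. If they were, 3 reads would be fewer than 3 pairs and the bounds could be too high.

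Genes with a mean of at least 0.1 RPKM (16236) were fitted as log2(RPKM + 0.1) in limma 3.58.1 (R 4.3.3; lmFit, contrasts.fit, eBayes with trend) as 4 group means, 2-sided, with Benjamini-Hochberg adjustment over all genes and a threshold of 0.05. Fold changes on this scale understate those of low genes. The methods name TCC, which was not used here because it needs counts. On simulated SW1990 data with 4-fold changes, 90 of 100 raised and 90 of 99 lowered genes were called. Tables were made with Python 3.11.15, pandas 2.3.3 and numpy 2.4.6, and plots with matplotlib 3.10.9. Replicate numbers did not meet the criterion for pairing (a correlation of deviations over 0.1 in every same-numbered pair) in any comparison, and no block was used. The paper names triplicate sorts, and the labels do not say whether same-numbered positive and negative samples came from the same sort. Missing the criterion does not show that they are independent, and a replicate block was run as an alternative.

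Alternatives were pseudocounts of 1 and 0.01, no filter or a mean of at least 1 RPKM, centring on the median, quantile normalization, pairs of groups fitted alone, a replicate block, no trend, voom on recovered reads, the study's thresholds (over 2-fold, p under 0.01) and each sample left out in turn. Genes named from the lists are those called over 2-fold in both lines and, per list and line, up to 3 called genes with the largest change and a group mean of at least 1 RPKM. Gene positions are from GENCODE 44 on GRCh37 and promoters from RefSeq on GRCh38.p14, and no coordinates were converted.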

Additional observations from a re-analysis of the deposited data

Results flagged for a closer look

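The change with the antigen differed between SW1990 and CFPAC-1, by a test of the difference itself in limma (Benjamini-Hochberg adjusted p under 0.05 over all genes), for 6 members. On the log2 scale, as the SW1990 change minus the CFPAC-1 change, the difference was 2.29 for *WNT10A*, 1.52 for *WNT7B* and 1.32 for *WNT7A*. It was -2.54 for *DKK1*, -2.11 for *AXIN2* and -1.84 for *DKK3*. Of all genes 26.9% passed the same test. With 3 samples a group, no group was tested for a sample far from the others.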

How the results depend on the processing

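The number of members called stayed within 1.5 times its reported value under every alternative in all 5 comparisons. It ranged over 7 to 9 for the antigen in SW1990, 2 to 4 in CFPAC-1, 5 to 7 for the difference between lines, 7 to 9 for the lines in negative cells and 6 to 9 in positive cells. Over 1030 recalculated log2 values of the 9 tested members, 986 kept their direction and call, 27 lost the call, 14 gained it and 3 reversed. The reversed values were *RNF43* in CFPAC-1 without CFPAC-1 negative replicate 2 (0.04) and without CFPAC-1 positive replicate 2 (0.00), within a range of -0.24 to 0.04 over single samples left out, and the *WNT7A* difference between lines with a pseudocount of 1 (-0.03). Counts of the other Wnt lists moved by over 1.5 times in 10 of 48 cases, and of 32 called values of the genes named from them 28 kept the call with centring and 27 with quantile normalization. Replicate numbers did not meet the criterion for pairing: deviations of same-numbered samples correlated at 0.329, 0.058 and 0.224 in SW1990 and at -0.048, -0.003 and -0.074 in CFPAC-1, and 3 of 6 and 0 of 6 samples correlated best with their own number. Between the lines the correlations were -0.045, -0.007 and -0.001 in negative cells (0 of 6 best with their own number) and 0.199, 0.152 and 0.021 in positive cells, where 6 of 6 were best with their own number, a hint from the data that the labels do not bear on. With a replicate block 8 members were called in SW1990, 2 in CFPAC-1, 8 for the lines in each population and 7 for the difference, the *RNF43* difference among them (1.09, adjusted p = 0.0392 in limma). Depth limits *WNT5A*, and *WNT7A*, *RNF43* and *AXIN2* where they rest on few reads.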

Other observations

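Some genes of the wider lists were close to absent from one line, and were picked for this after their values were seen. *SFRP1*, a secreted inhibitor that binds Wnt ligands, was at most 0.0192 RPKM in any SW1990 sample and 16.2 ± 5.85 and 24.3 ± 5.24 RPKM (SD, n = 3) in negative and positive CFPAC-1 cells. Set against a floor of 3 reads per library, it was at least 487.5-fold lower in negative and 651.0-fold lower in positive SW1990 cells. The receptor *FZD10* was at least 81.6-fold and 84.1-fold lower in SW1990. In the other direction, *APCDD1*, a membrane inhibitor of the pathway, was at least 26.7-fold higher in negative and 15.0-fold higher in positive SW1990 cells, and the feedback inhibitor *NKD1* at least 23.0-fold and 5.63-fold higher. Like *AXIN2*, *NKD1* fell in positive SW1990 cells (log2 fold change -1.36, adjusted p = 0.00275 in limma).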
